A study of Homo sapiens with 3 samples.

Results

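GM06990, a lymphoblastoid line of B-lymphocyte origin, was 1 of 3 cell lines in a capture Hi-C study of breast cancer risk loci, and the contacts of its captured regions were examined here without the other lines. Its sample held 2 replicates of cells grown in medium with 15% fetal bovine serum, fixed for 5 min in 2% formaldehyde, lysed by dounce and cut with HindIII. The breast lines BT483 and SUM44 were not analysed here. The members were the captured regions. The loci at 8q24.21, 2q35 and 9q31.2, which carry breast cancer risk, were set beside the 3 other captured regions, on chromosomes 3, 16 and 18, whose role the labels do not state. Of 1077 captured fragments, 519 lay in the risk loci and 558 in the other regions, and 1075 carried counts.

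Capture Hi-C joins pieces of chromatin that touch in the fixed nucleus and pulls out the joined products with one end in a chosen region. Contact frequency falls with distance along the chromosome, is broken up by topologically associating domains whose borders lower contact between neighbours, and is far lower between chromosomes than within one. Whole chromosome arms also tend to occupy separate space, and active and inactive chromatin each keep company with their own kind. 8q24.21 is a gene desert whose telomeric neighbour is MYC, a transcription factor that drives proliferation, followed by the long noncoding RNA gene PVT1. 2q35 lies between IGFBP5, which encodes a binding protein of insulin-like growth factors, on its centromeric side and TNS1, which encodes a focal adhesion protein, on its telomeric side. KLF4, a transcription factor gene, lies on the centromeric side of 9q31.2. Among the other regions, ZFHX3, another transcription factor gene, lies on the centromeric side of the chromosome 16 region. CELF4, for an RNA-binding protein, and PIK3C3, for a lipid kinase, lie on the centromeric and telomeric sides of the chromosome 18 region. No window below was assigned to a gene, because no annotation of the build of the files was used.

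In GRCh37 coordinates the captured regions were chr2:217609776-218362744 (2q35, 753 kb, 227 fragments), chr8:127886760-128470692 (8q24.21, 584 kb, 192 fragments) and chr9:110758376-111099364 (9q31.2, 341 kb, 100 fragments). The others were chr3:82599410-82938789 (339 kb, 109 fragments), chr16:73599933-74183980 (584 kb, 190 fragments) and chr18:38494518-39252983 (758 kb, 259 fragments). In length, 2q35 was thus close to the chromosome 18 region, 8q24.21 to the chromosome 16 region and 9q31.2 to the chromosome 3 region. The chromosome 3 region lay on the short arm, 7.61 Mb from the centromere gap, and the 5 others on the long arm, between 20.0 Mb (chromosome 18) and 122.3 Mb (2q35) from it.

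Contacts with one end outside the captured region totalled 2531103 in replicate 1 and 4268868 in replicate 2. The replicates differed in kind as well as in depth. Trans contacts, those with other chromosomes, made up 55.6 to 65.4% of a region's contacts in replicate 1 and 70.7 to 79.6% in replicate 2. Values are therefore given for each replicate, or as the mean with the SD over both. Nothing in the labels says that the replicates came from separate cultures, so their spread may be technical. The chromosome 3 region was captured most thinly, with a median of 494 and 1268 trans contacts per captured fragment against 1039 to 1588 and 2389 to 3594 in the other 5 regions. Read pairs were amplified without molecular identifiers, so counting errors do not cover duplicated molecules.

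The risk loci held more of their contacts close by than the other regions did. Contacts within 1 Mb of the region made up 13.8% and 7.20% for 2q35 in replicates 1 and 2, 16.4% and 9.30% for 8q24.21, and 17.2% and 8.48% for 9q31.2. The chromosome 3, 16 and 18 regions had 11.7%, 11.8% and 10.4% in replicate 1, and 6.60%, 5.99% and 5.91% in replicate 2. All 3 risk loci thus stood above all 3 other regions in each replicate, while the shift between replicates was larger than the gap between the sets. The difference of the means was 3.34 ± 1.66 percentage points (SD, n = 2 replicates). It kept its sign in each pair of like length: 2q35 exceeded the chromosome 18 region by 3.39 and 1.29 points in the replicates, 8q24.21 the chromosome 16 region by 4.62 and 3.32, and 9q31.2 the chromosome 3 region by 5.51 and 1.89. With 3 regions a set, no test was made of risk loci as a kind.

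Over the full near cis range, the 5.0 Mb to either side of a region, the sets overlapped. The near cis share was 28.3% and 16.4% at 8q24.21, 25.2% and 13.3% at 9q31.2, and 19.2% and 10.5% at 2q35. It was 21.3% and 12.5% in the chromosome 3 region, 20.8% and 11.0% in the chromosome 16 region, and 21.8% and 12.6% in the chromosome 18 region. 8q24.21 was the highest and 2q35 the lowest in both replicates, so the risk loci bracketed the others. Exact Clopper-Pearson 95% intervals were narrow, for instance 28.2 to 28.4% at 8q24.21 and 21.1 to 21.6% in the chromosome 3 region in replicate 1, and cover counting error only. 2q35 held instead the largest share of far cis contacts, those on its own chromosome beyond 5.0 Mb, with 24.3% and 18.8%. The chromosome 16 region held the smallest, with 13.8% and 9.42%, and the largest trans share, 65.4% and 79.6%. These shares were not set against chromosome length. Per 50 kb window, averaged over all distances beyond 5.0 Mb and relative to trans windows of the same region, 2q35 was the lowest region on both arms. It stood at 6.72 and 3.92 times on its own arm and 2.24 and 1.74 times on the other. The chromosome 16 region stood at 13.4 and 7.27 times on its own arm. Such averages pool distances that differ between regions, and the order changed at matched distances. Between 10 and 20 Mb on its own arm 2q35 stood at 14.6 and 7.70 times, second to the chromosome 18 region (15.9 and 8.13). Between 20 and 40 Mb it stood at 6.95 and 4.14 times, above only the chromosome 3 region (4.64 and 2.88).

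Distance curves placed the difference near the captured regions. Levels were expressed as contacts per 50 kb over the same region's trans level, which divides out the capture efficiency and depth that cis and trans contacts share. In the first 0.05 Mb from the edge, 2q35 reached 1074 and 418 times the trans level in the replicates, 9q31.2 reached 1078 and 379, and 8q24.21 reached 835 and 357. The chromosome 3, 16 and 18 regions reached 562 and 266, 761 and 322, and 709 and 318. The risk loci were all above the other regions in 4 of 4 bands up to 0.5 Mb in each replicate. Between 0.25 and 0.5 Mb they ranged from 338 to 538 in replicate 1 against 182 to 281 in the others, and from 146 to 197 in replicate 2 against 80.5 to 125. From 0.5 Mb outward the sets overlapped in every band, and 2q35 was the lowest of all 6 between 0.5 and 3 Mb. Between 1 and 2 Mb it stood at 44.7 and 23.8 times the trans level, against 90.6 and 39.8 in the chromosome 16 region, the lowest of the others, and 144 and 61.6 at 8q24.21, the highest.

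**Figure D1:**
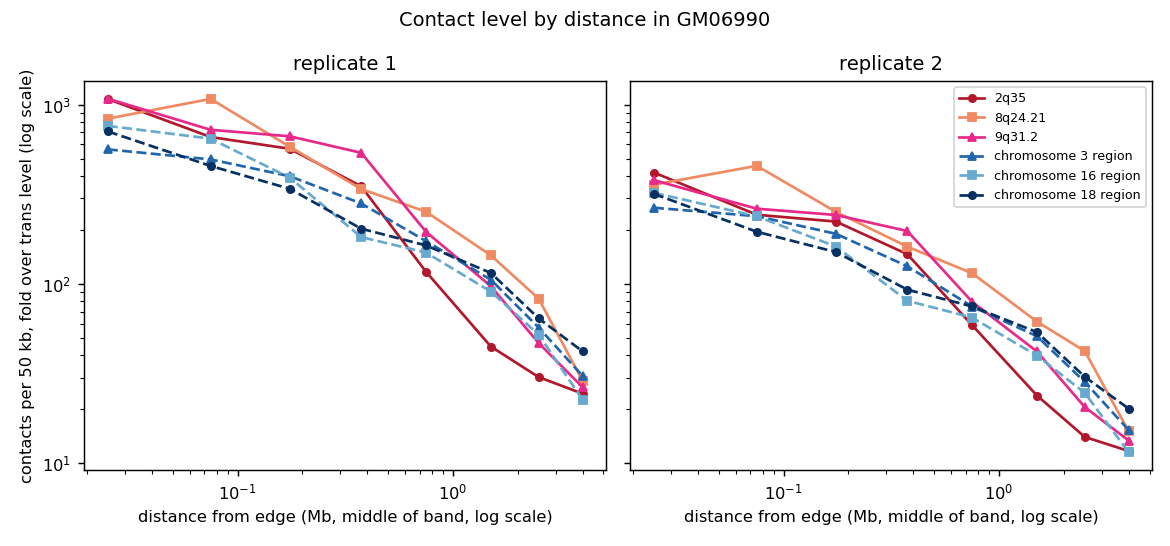
Contacts per 50 kb, as fold over the trans level of the same region (log scale), against distance from the edge of the captured region (Mb, log scale), both sides together, with 1 panel per replicate; solid lines are risk loci and dashed lines the other regions. The solid lines lie above the dashed ones up to 0.5 Mb and mix with them farther out, where 2q35 drops to 44.7 and 23.8 times the trans level between 1 and 2 Mb.

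The decay slope, fitted to log10 contacts per fragment pair on log10 distance from 30 kb to 5 Mb, was steepest at 2q35, at -1.05 ± 0.055 (SD, n = 2). It was -0.889 ± 0.045 at 8q24.21 and -0.849 ± 0.055 at 9q31.2. The chromosome 16 region had -0.850 ± 0.034, the chromosome 3 region -0.779 ± 0.0054 and the chromosome 18 region -0.779 ± 0.031. Only 2q35 differed from every other region by more than the replicate spread, and 9q31.2 and the chromosome 16 region could not be told apart. The mean of the risk loci was steeper by 0.126 ± 0.028, with a difference of -0.126, but it was shallower by 0.0992 when only distances from 50 kb to 1 Mb were used. From 1 Mb outward the chromosome 18 region stood apart, with a slope of -0.873 ± 0.0051 against -1.25 to -1.37 in the other 5. Its median contact distance was also the longest, 1450 and 1492 kb, and 9q31.2 had the shortest, 652 and 731 kb.

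Inside the captured regions the decay slopes did not separate the sets. The slope of contacts between fragments of one region, from 5 to 300 kb, ranged from -0.627 (9q31.2) to -0.665 (8q24.21) in the risk loci and from -0.620 (chromosome 3) to -0.761 (chromosome 18) in the others. Replicate SDs of up to 0.137 were as large as most gaps. Pairs closer than 20 kb, which include neighbouring fragments, made up 22.7 to 40.2% of these contacts in replicate 1 and 41.3 to 61.5% in replicate 2, again a larger shift than between the sets. For each 100 contacts leaving the region, 21.0 and 12.7 stayed inside 2q35 and 13.5 and 9.69 inside the chromosome 18 region of like length. 8q24.21 had 16.7 and 11.1 against 14.1 and 10.2 in the chromosome 16 region, and 9q31.2 had 9.58 and 7.47 against 8.14 and 6.77 in the chromosome 3 region. The risk locus was higher in all 3 pairs and both replicates, although the ranges of the sets overlapped. Fragment pairs 100 to 300 kb apart averaged 2.83 to 4.15 contacts in the risk loci and 0.743 to 2.45 in the others in replicate 1. In replicate 2 these ranges were 2.12 to 3.17 and 0.775 to 1.91. Such averages were not scaled for capture efficiency.

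Contacts to either side were unequal in most regions, and the direction differed between regions within each set. 8q24.21 leaned strongly to its telomeric side, which is the side of MYC and PVT1. There it made 111015 and 101033 contacts within 5.0 Mb, against 37190 and 36423 on the centromeric side, so 74.9% and 73.5% were telomeric. On the log2 scale of telomeric over centromeric contacts this was 1.52 ± 0.075 (SD, n = 2). 2q35 leaned the same way but less, at 0.33 ± 0.019, with 69505 and 63372 telomeric against 54781 and 50865 centromeric contacts. TNS1 is on its favoured side and IGFBP5 on the other. 9q31.2 leaned the other way, at -0.63 ± 0.015, with 28608 and 24651 telomeric against 44064 and 38543 centromeric contacts. KLF4 is on the favoured side there. Any link between the lean of a region and the genes beside it was not tested.

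Most centromeric in balance was the chromosome 16 region, at -0.96 ± 0.093, with 32252 and 31188 telomeric against 65543 and 57839 centromeric contacts. ZFHX3 is on that favoured side. The chromosome 18 region stood at -0.67 ± 0.050, with CELF4 on its favoured side and PIK3C3 on the other. The chromosome 3 region was near balance at 0.12 ± 0.087. The risk loci therefore overlapped the other regions, and 9q31.2 and the chromosome 18 region differed by less than their spread. The difference of the means, 0.91 ± 0.022, rested on 8q24.21 and the chromosome 16 region at either end. In the pairs of like length it had both signs, at 0.98 and 1.02 for 2q35 minus the chromosome 18 region and 2.60 and 2.36 for 8q24.21 minus the chromosome 16 region, but -0.81 and -0.71 for 9q31.2 minus the chromosome 3 region.

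The asymmetry changed with distance. At 8q24.21 it was largest close in, at 2.46 ± 0.10 between 0.05 and 0.1 Mb, a 5.51-fold excess, and still 2.20 ± 0.13 between 0.5 and 1 Mb. Beyond 3 Mb it had shrunk to 0.35 ± 0.095. Contacts of the chromosome 16 region went through its deepest centromeric excess between 0.5 and 1 Mb, at -2.38 ± 0.29, and then changed side, to 1.40 ± 0.17 beyond 3 Mb. The bands of the chromosome 18 region had both signs up to 0.25 Mb and were centromeric from there outward, with no steady trend, between -0.55 ± 0.038 (1 to 2 Mb) and -1.34 ± 0.12 (beyond 3 Mb). 9q31.2 kept a centromeric excess in 8 of 8 bands, between -0.28 and -1.06. 2q35 showed its largest lean between 2 and 3 Mb, at 0.85 ± 0.048. In the chromosome 3 region the bands had both signs, from 1.23 ± 0.31 in the first 0.05 Mb to -0.70 ± 0.037 in the next.

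**Figure D2:**
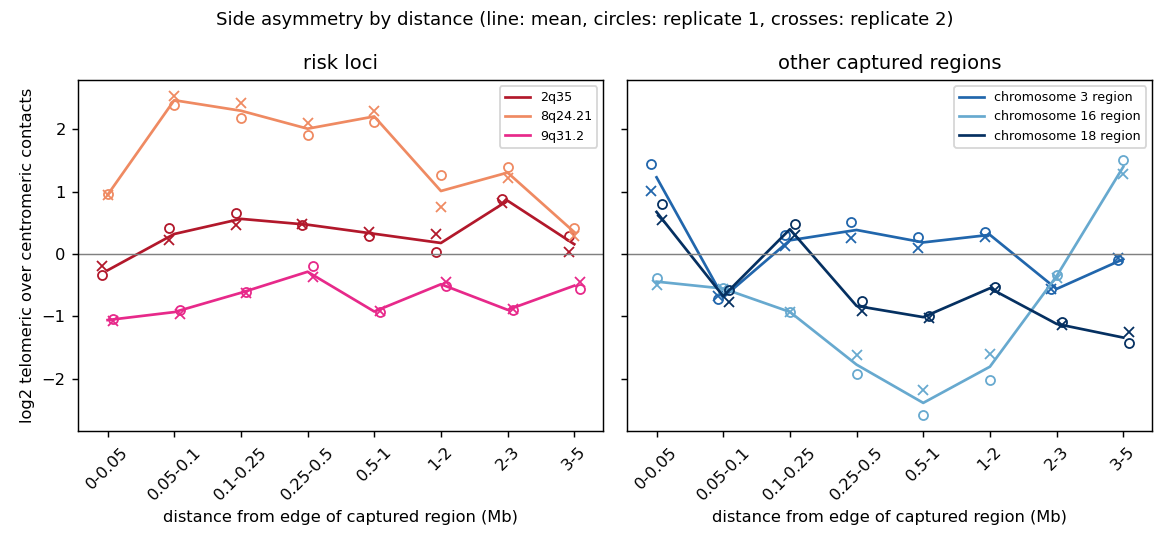
Log2 ratio of telomeric to centromeric contacts by distance from the edge of the captured region (Mb), with risk loci on the left and the other regions on the right; lines are means of 2 replicates, circles replicate 1 and crosses replicate 2. 8q24.21 stays above 0 and 9q31.2 below 0 in every band, while the chromosome 16 region goes from -2.38 between 0.5 and 1 Mb to 1.40 beyond 3 Mb.

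The lean also depended on where in the region a captured fragment lay. The fragments of each region were split into 4 parts of equal length from the centromeric to the telomeric edge, and contacts were divided by those expected from distance. At 2q35 the ratio ran from 1.24 ± 0.12 in the first of these through 0.63 ± 0.058 and -0.03 ± 0.014 to -0.65 ± 0.095 in the last. Each end of 2q35 thus made more than its distance share of contacts across the region, on the far side. At 8q24.21 all 4 favoured the telomeric side, from 1.85 ± 0.097 to 0.96 ± 0.085, and at 9q31.2 all favoured the centromeric side, from -0.40 ± 0.058 to -0.82 ± 0.014. The chromosome 16 and 18 regions favoured the centromeric side in all 4, between -0.48 and -1.22. For the chromosome 3 region they stayed between 0.06 and 0.16. A change of side within the region was seen in both replicates at 2q35 only, although the chromosome 3 region changed sign in its last stretch in replicate 2, at -0.03.

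Bin by bin, telomeric and centromeric counts were compared in 99 mirrored pairs of 50 kb bins per region with the quasi-likelihood test of edgeR, in which p-values measure the spread between replicates. Over all 6 regions 428 of 594 bins, 72.1%, differed at an adjusted p under 0.05, with the telomeric bin higher in 33.3% and the centromeric in 38.7%. Against that background, 8q24.21 had 73 bins with more contacts on the telomeric side and 6 on the centromeric. The chromosome 18 region had 8 and 75, and 9q31.2 had 8 and 59. 2q35 had 47 and 14, the chromosome 16 region 42 and 47, and the chromosome 3 region 20 and 29. Within 1 Mb of the edge, 20 of 20 bins were telomeric at 8q24.21 and 19 of 20 were centromeric in the chromosome 16 region. Beyond 3 Mb, 37 of 39 bins of the chromosome 16 region were higher on the telomeric side.

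Differences of at least 2-fold were nearly as frequent in 1 direction as in the other over all regions, at 19% telomeric and 20.4% centromeric. 8q24.21 had 48 such telomeric bins and the chromosome 18 region 44 such centromeric ones. For chromosome 16 the numbers were 37 and 36, while 9q31.2 had 2 and 29, 2q35 had 17 and 2, and the chromosome 3 region had 8 and 9. Uninterrupted runs of called bins were longest in the chromosome 16 region, where 30 bins from 3450 to 4950 kb were telomeric, and in the chromosome 18 region, where 28 bins from 2400 to 3800 kb were centromeric by 3.07- and 3.01-fold. At 8q24.21 the first 25 bins, from 0 to 1250 kb, formed 1 telomeric run with 3.81- and 4.07-fold more contacts. The longest runs at 2q35, 9q31.2 and the chromosome 3 region were 10, 9 and 8 bins.

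Single bins gave the sharpest contrasts. At 8q24.21 the bin 150 kb from the edge held 6844 and 5833 contacts on the telomeric side (chr8:128620240-128666784) against 725 and 619 at the mirrored centromeric position. The log2 difference was 3.24 (SE 0.15, adjusted p = 4.07e-12, edgeR). The bin at 2050 kb held 1804 and 1553 against 141 and 195 contacts, a log2 difference of 3.31 (SE 0.17, adjusted p = 5.02e-12, edgeR). The sides did not overlap in either bin, and the folds were 9.43 and 9.92. Bins differ in how many HindIII fragments they hold: set against that number, the log2 differences were 2.16 and 1.95. The fit did not pair the sides of a library. With the replicate number as a block, the adjusted p-values were far larger, at 1.32e-05 for the bin at 150 kb and 2.30e-04 for that at 2050 kb (edgeR).

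In the chromosome 16 region the bin at 1350 kb went the other way, with 95 and 133 telomeric against 1751 and 1406 centromeric contacts (chr16:72198203-72254114), at -3.78 (SE 0.18, adjusted p = 4.07e-12, edgeR). Farther out, at 3150 kb, it was the centromeric bin that was nearly empty, with 11 and 15 contacts against 190 and 182, at 3.82 (SE 0.32, adjusted p = 3.56e-09, edgeR). Per target fragment these differences were -2.34 and 1.72. With the replicate number as a block, the adjusted p-values were 2.12e-04 at 1350 kb and 1.92e-04 at 3150 kb (edgeR). In the chromosome 18 region the bin at 3150 kb had 95 and 160 telomeric against 1059 and 939 centromeric contacts (-2.97, SE 0.19), and -2.09 per target fragment.

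9q31.2 had its largest contrast at 2050 kb, with 61 and 49 telomeric against 502 and 409 centromeric contacts (-3.05, SE 0.19), or -1.41 per target fragment. At 250 kb it had the reverse, 2304 and 1677 against 1022 and 809 (1.12, SE 0.13), but that direction turned to -0.60 when counts were set against the number of HindIII fragments in each bin. 2q35 differed most at 2150 kb, with 490 and 430 telomeric against 102 and 111 centromeric contacts (2.11, SE 0.18), or 1.62 per target fragment. Its largest contrast the other way, at 3450 kb, had 73 and 86 against 208 and 230 (-1.46, SE 0.23), but per target fragment it was -0.27 and the call was lost (adjusted p = 0.314, edgeR). The chromosome 3 region had 386 and 371 against 93 and 98 at 1050 kb (1.99, SE 0.19) and 12 and 23 against 68 and 81 at 3600 kb (-2.08, SE 0.28). Per target fragment these became 1.20 and -0.87.

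Windows were next set against the level expected from distance, fitted for each region and replicate over both sides. At least 2-fold above it, at an adjusted p under 0.05 by edgeR, were 39 of 1185 windows, 3.29%, and at least 2-fold below it were 138, 11.6%. The risk loci held 16 of 600 (2.67%) above and the other regions 23 of 585 (3.93%), so the share was not higher at risk loci. They were unevenly spread: 12 at 8q24.21, 13 in the chromosome 16 region and 9 in the chromosome 18 region, against 2 at 2q35, 2 at 9q31.2 and 1 in the chromosome 3 region. All 12 at 8q24.21 lay on the telomeric side, and all 9 of the chromosome 18 region on the centromeric side. The chromosome 16 region had 8 centromeric and 5 telomeric ones. Of the windows below, 28 of the 31 at 8q24.21 were centromeric and 28 of the 31 in the chromosome 18 region telomeric. Because the background was shared by both sides, this count holds the side asymmetry as well: with each side fitted on its own, 6 windows passed, of which 3 belonged to risk loci, and 5 of the 6 were among the 39. Per target fragment 21 passed, of which 10 were among the 39.

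At 8q24.21 the windows above the background began 50 kb from the edge and reached 2250 kb. The highest was chr8:130521000-130568982, 2050 kb from the edge, at 3.10 and 2.88 times the expected level in the replicates (1804 and 1553 contacts). A run of 4 windows between 650 and 850 kb reached 2.46 times at chr8:129273487-129321850. Nearer in, chr8:128720408-128772659, 250 kb from the edge, held 6451 and 5797 contacts, 2.40 and 2.34 times the expected level. Both of these last stretches lay within the telomeric run of the first 1250 kb. With each side fitted on its own the window at 250 kb stood at a log2 of 0.57 and that at 800 kb at 0.63, and per target fragment at 0.996 and 0.980, so neither kept its 2-fold excess. The window at 2050 kb kept it both ways, at 1.12 and 1.26.

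The largest excess of all windows called was chr16:70148986-70196632, 3400 kb to the centromeric side of the chromosome 16 region, with 594 and 599 contacts, 3.84 and 3.72 times the expected level. Its surroundings lay below the expected level, as the profile by window shows. Closer in on the same side, 3 adjoining windows from 1300 to 1450 kb reached 2.83 times (chr16:72151500-72198202) and 2 from 700 to 800 kb reached 2.63 times (chr16:72848553-72900490). On its telomeric side, chr16:78084748-78134820 stood at 2.58 and 2.33 times. With each side fitted on its own, the log2 excess of these last 3 named windows was 0.83, 0.67 and 0.72, under 2-fold, while the window at 3400 kb stood at 2.61. Per target fragment the chromosome 16 region had 3 windows called, against 13 before. In the chromosome 18 region 8 of the 9 windows lay between 2900 and 4000 kb on the centromeric side, which is the side of CELF4, led by chr18:34850956-34890351 with 619 and 661 contacts, 2.95 and 3.03 times the expected level. That window stayed at least 2-fold above with each side fitted on its own (log2 1.00) and per target fragment (1.14).

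Only isolated windows were called at 9q31.2, at 2q35 and in the chromosome 3 region. 9q31.2 had chr9:108658603-108708522, at 2.60 and 2.19 times, and chr9:107611431-107657322, at 2.32 and 2.15 times, both on the centromeric side. Neither stayed at 2-fold per target fragment (log2 0.29 and 0.71) or with each side fitted on its own (0.87 and 0.82). 2q35 had 1 window on each side, both at 2.06 times, chr2:220768243-220812935 and chr2:214059710-214110172. Per target fragment both were under 2-fold (0.62 and 0.74), and with each side fitted on its own only the second stayed above it (0.71 and 1.11). The only window of the chromosome 3 region was chr3:87188347-87237839, at 2.27 and 1.89 times with 75 and 68 contacts. Its excess was lost per target fragment, at a log2 of 0.19 (adjusted p = 0.281, edgeR). In these 3 regions the replicates fell on both sides of the 2-fold mark in 3 of the 5 windows.

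**Figure D3:**
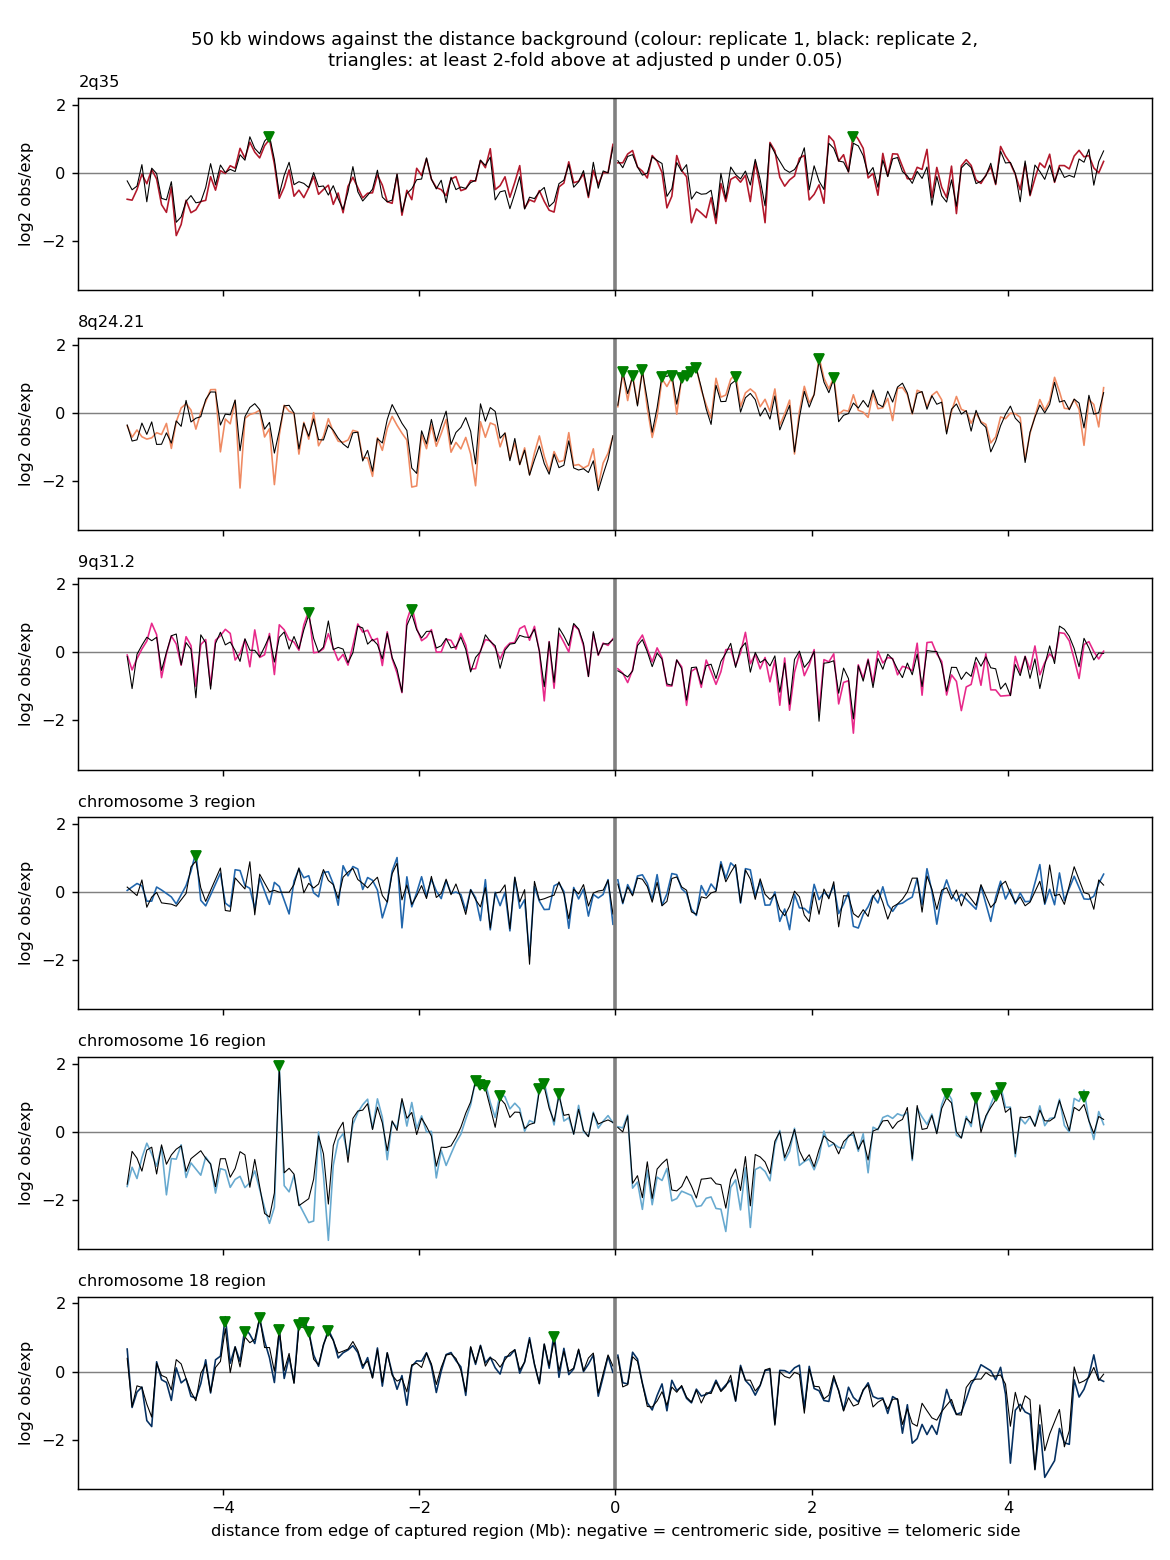
Log2 ratio of observed to expected contacts in 50 kb windows by signed distance from the edge of the captured region (Mb; negative is centromeric, positive telomeric), 1 panel per region, with replicate 1 in colour, replicate 2 in black and triangles at windows called at least 2-fold above. The triangles gather on the telomeric side of 8q24.21 (12), on both sides of the chromosome 16 region (13) and on the centromeric side of the chromosome 18 region (9).

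Beyond 5.0 Mb, averaged over all distances, each of the 6 regions made more contacts per window with its own chromosome arm than with the other. This held in both replicates. The same arm exceeded the other by 3.43- and 2.72-fold at 9q31.2, 3.15- and 2.46-fold at 8q24.21, and 3.0- and 2.25-fold at 2q35. The values were 3.44- and 2.90-fold in the chromosome 16 region, 2.17- and 1.83-fold in the chromosome 3 region, and 1.89- and 1.72-fold in the chromosome 18 region. Chromosome 16 thus exceeded the risk loci, and the sets overlapped. As log2 of other over same arm, the risk loci averaged -1.49 and the other regions -1.17, a difference of -0.32 ± 0.11. It shrank to -0.021 when windows within 20 Mb of the region were left out. It turned to 0.27 when only windows within 10 Mb of the centromere gap were compared, a choice made after seeing the data.

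The regions differ in how far they lie from the centromere, so arm and distance cannot be told apart for most of them. Both arms held the same distances in the chromosome 3 and chromosome 18 regions only. In 4 of 4 matched bands of 5 Mb the chromosome 18 region favoured its own arm, with log2 values from -0.28 to -1.79. Values of the chromosome 3 region had both signs over 15 bands, from -1.64 between 80 and 85 Mb to 1.81 between 30 and 35 Mb in replicate 1. Within 10 Mb of the centromere gap the arms differed least for 8q24.21, at -0.28 ± 0.095, and most for 9q31.2, at -1.81 ± 0.19.

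The other arm was still above the trans level everywhere. It stood at 3.66 and 2.28 times that level for 9q31.2, 2.28 and 1.77 for 8q24.21, and 2.24 and 1.74 for 2q35. For the chromosome 3 region it was 3.59 and 2.44, the chromosome 16 region 3.90 and 2.5, and the chromosome 18 region, whose other arm is the short arm of a small chromosome, 8.07 and 4.61. The order followed in part the distance to the centromere gap, longest at 2q35 (122.3 Mb) and 8q24.21 (81.1 Mb), and the part of that distance was not tested.

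**Figure D4:**
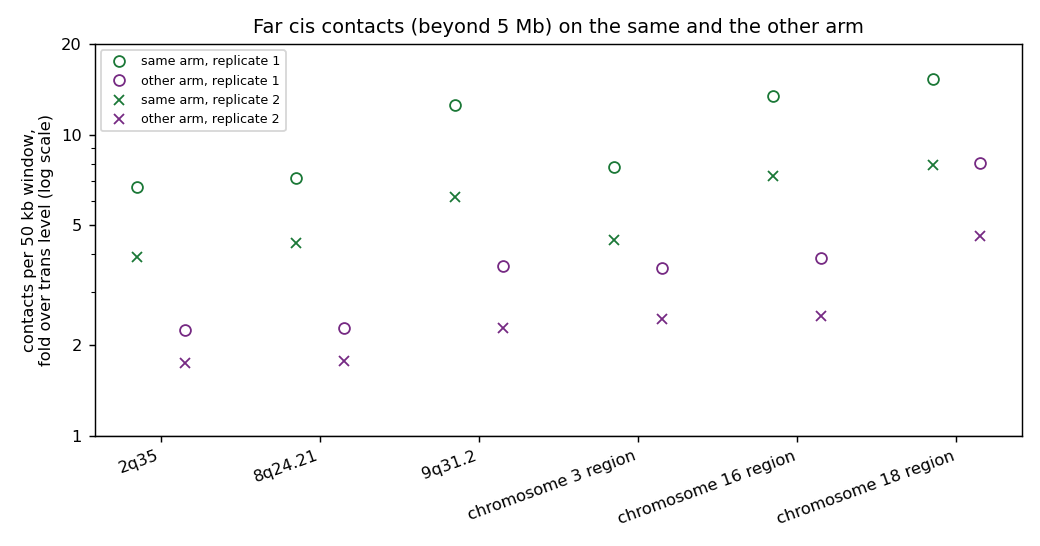
Contacts per 50 kb window beyond 5.0 Mb, as fold over the trans level (log scale), on the same arm (green) and the other arm (purple) for each captured region; circles are replicate 1 and crosses replicate 2. The same arm lies above the other arm in every region and replicate, and the chromosome 18 region has the highest other arm at 8.07 and 4.61 times the trans level.

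Trans contacts were spread over the 17 chromosomes without a captured region in a similar way by all regions. Chromosome 19 received the least, 0.52 to 0.61 of its share by length from the risk loci and 0.58 to 0.65 from the others, and chromosome 11 between 1.06 and 1.13 from all. Chromosome 21 alone had ranges that did not overlap over both replicates, 1 of 17 or 5.88% with the risk loci lower and 0 (0%) with them higher. It received 0.81 and 0.87 of its share from 2q35, 0.82 and 0.87 from 8q24.21, and 1.01 and 0.99 from 9q31.2. From the chromosome 3 region it received 1.05 and 1.03, from the chromosome 16 region 1.25 and 1.09, and from the chromosome 18 region 1.27 and 1.10. 9q31.2 and the chromosome 3 region were close neighbours in that order, so the gap between the sets was small. On chromosome 20 the sets overlapped, with the risk loci between 0.89 and 1.01 and the others between 0.98 and 1.14.

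**Figure D5:**
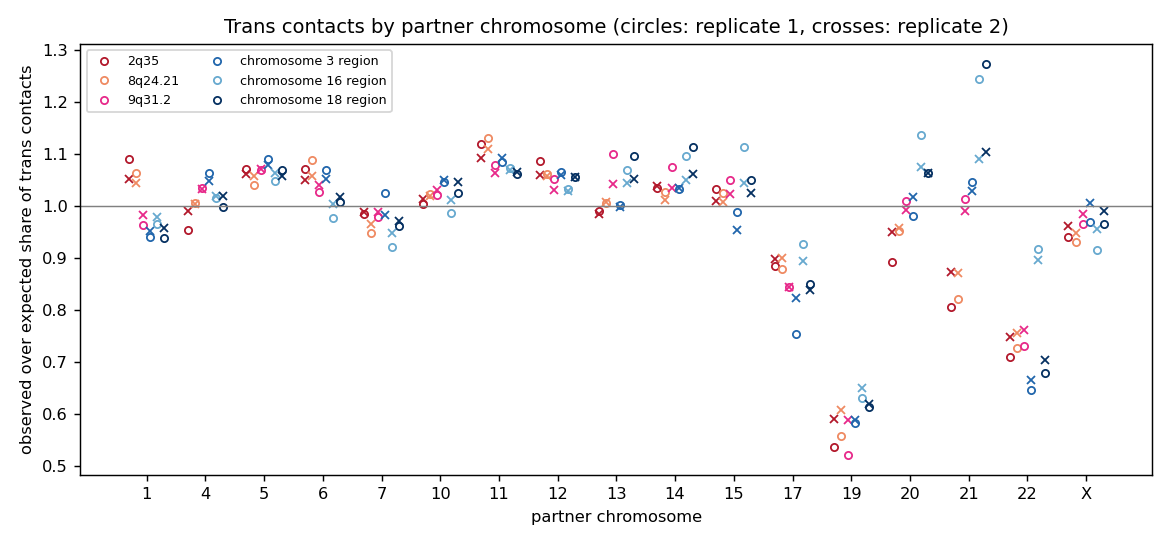
Observed over expected share of trans contacts (expected from the number of windows) for each partner chromosome without a captured region, with 1 colour per captured region, circles for replicate 1 and crosses for replicate 2. On chromosome 21 the risk loci lie at 0.81 to 1.01 and the other regions at 1.03 to 1.27; chromosome 19 is low for all regions.

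In 1 Mb trans windows the mean of the risk loci was compared with the mean of the other regions by the quasi-likelihood test of edgeR. Its p-values measure the spread between the 2 replicates of these 6 regions and say nothing of risk loci as a kind. Of 2014 windows, 275 (13.7%) were higher and 236 (11.7%) lower at the risk loci at an adjusted p under 0.05. The differences were small: the largest was 1.54-fold up and 1.63-fold down. Most calls did not separate the sets region by region. The 6 values of the risk loci lay above all 6 of the others in 34 windows (1.69%) and below them in 44 (2.18%). By DESeq2 207 windows were called, all of them among the 511. Leaving out 1 region at a time gave 179 calls without 2q35, 193 without the chromosome 18 region, 281 without 8q24.21 and 772 without 9q31.2. The count thus fell without 2q35, 8q24.21 or the chromosome 18 region and rose without 9q31.2.

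Calls were gathered on some chromosomes. On chromosome 21, 23 of 38 windows were lower at the risk loci and 0 higher. On chromosome 20, 23 of 61 were lower and 4 higher, and on chromosome 1, 67 of 230 were higher and 12 lower. Chromosome 1 as a whole did not separate the sets. It received 1.09 and 1.05 of its share from 2q35 and 1.06 and 1.04 from 8q24.21. From 9q31.2 it received 0.96 and 0.98, close to the 0.94 to 0.98 from the other regions. The window with the largest difference down was chr21:20000001-21000000. Per 100000 trans contacts it received 31.6 ± 2.0 from 2q35, 32.9 ± 2.9 from 8q24.21 and 35.6 ± 1.9 from 9q31.2 (SD, n = 2). It received 57.8 ± 7.6, 48.1 ± 0.73 and 65.8 ± 18 from the chromosome 3, 16 and 18 regions, a log2 difference of -0.71 (SE 0.097, adjusted p = 2.64e-09, edgeR), with no overlap between the sets.

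Among windows higher at the risk loci, chr4:185000001-186000000 received 84.4 ± 7.9, 74.8 ± 6.3 and 61.0 ± 2.6 from 2q35, 8q24.21 and 9q31.2. The chromosome 3, 16 and 18 regions gave it 44.0 ± 0.12, 50.7 ± 1.7 and 45.5 ± 8.6, again without overlap (log2 0.61, SE 0.088, adjusted p = 1.29e-08, edgeR). The windows chr5:171000001-172000000 (0.60) and chr1:206000001-207000000 (0.58) also separated the sets. In chr1:235000001-236000000 (0.62) and chr7:101000001-102000000 (0.60) they overlapped. On the lower side they overlapped in chr1:142000001-143000000 (-0.66), chr21:14000001-15000000 (-0.62), chr21:21000001-22000000 (-0.60) and chr6:57000001-58000000 (-0.59). The last rested on the chromosome 3 region, at 166 ± 66 against 55.6 to 73.9 in the other 5, and without that region its adjusted p was 0.0616. The window chr21:14000001-15000000 had an adjusted p of 0.0561 without 2q35 and 0.119 without the chromosome 18 region (edgeR).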

How the data were processed

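The authors deposited raw counts of ligated read pairs for GM06990 in 4 tables, between and beyond captured HindIII fragments, each with a count column for either replicate. CASAVA 1.8 and the build GRCh37 (hg19) are named per the submitters' processing notes, and the aligner was not given in the sources used here. Members and lists were chosen with earlier results of these data known.

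Counts were summed without normalisation by region, replicate, side and distance. The centromere was taken as the longest stretch without contacts in the low resolution cis table. Asymmetry compared equal distances from the edges, to 5 Mb. Decay slopes used 10 bins per factor of 10 in distance with at least 100 pairs. Mirrored bins, windows against the distance background and 1 Mb trans windows were tested with edgeR 4.0.16 (quasi-likelihood, Benjamini-Hochberg over all features, threshold 0.05). Bins and windows needed 50 contacts summed over their columns, and trans windows a mean of 10 contacts. DESeq2 1.42.0, other bin sizes, filters, scalings and ranges were alternatives. The window test compared an intercept-only fit with the expected count as offset, in R 4.3.3. Other values have no test, since regions are not replicates. Text names all regions, and per region the 3 bins in each direction and the 3 windows on each side with the largest fold among those called with 50 contacts in each replicate (windows), and 5 trans windows in each direction, of which the report gives the leading ones.

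On simulated counts, 100% of 2-fold changes were recovered in the mirrored bins and 78% of 1.5-fold ones. For windows the shares were 100% and 95%, counted by adjusted p alone. Windows reported as above or below the distance background also had to reach 2-fold. Recovery under both conditions was not tested. For trans windows they were 99% of 1.5-fold and 54% of 1.25-fold changes. The simulated counts had dispersions set by hand, and each column was drawn independently. Simulated windows followed the distance background exactly apart from the changes put in. These shares therefore need not hold for the real counts. Replicate numbers mark libraries shared by all regions, so the columns are paired by library. The main fits of mirrored bins and trans windows did not use that pairing. Beyond library totals, deviations of regions within a replicate had correlations from -0.11 to 0.19 over 15 pairs of regions, and those of the sides 0.074.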

Additional observations from a re-analysis of the deposited data

Results flagged for a closer look

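In 2 regions both replicates leaned to one side within 1 Mb of the edge and to the other side from 3 Mb outward, a range chosen after seeing the data. The chromosome 16 region went from -1.36 and -1.28 near its edges to 1.51 and 1.28 farther out, with a mean of 1.40 (log2 telomeric over centromeric). The chromosome 3 region went from 0.35 and 0.16 to -0.10 and -0.06, with a mean of -0.083. The difference between near and far was not tested in either region. The chromosome 3 values are small and rest on the thinnest capture.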

How the results depend on the processing

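All differences here are the mean of the risk loci minus that of the other regions, and the cause of each shift was not tested. The share of near contacts differed by 2.14 percentage points within 5 Mb (1.34 to 2.94 with 1 replicate left out) and by 3.34 within 1 Mb (4.51 and 2.16 in the replicates). The decay slope differed by -0.126, reversed to 0.0992 from 50 kb to 1 Mb, and was -0.221 from 1 Mb outward and -0.180 with distances from the edge. Side asymmetry, 0.91, was 1.08 per target fragment, 1.06 within 1 Mb, 0.72 from 1 Mb outward, 0.0085 from 3 Mb outward and 0.63 as a median over bins. In the chromosome 3 region it reversed to -0.023 from 1 Mb outward, -0.083 from 3 Mb outward and -0.0022 as a median, and in the chromosome 16 region to 1.40 from 3 Mb outward. The arm difference, -0.32, was -0.021 without windows within 20 Mb and reversed to 0.27 near the centromere gap. The slope within the capture differed by 0.0356, and by 0.0211 without pairs closer than 20 kb.

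Mirrored bins called numbered 428, 213 with 100 kb bins, 806 with 25 kb bins and 379 by DESeq2. Per target fragment, 4 named bins reversed: 9q31.2 at 4250 kb (-0.39) and 250 kb (-0.60), chromosome 3 at 3350 kb (-0.14) and chromosome 18 at 150 kb (-0.092). Windows above the background numbered 39, and 12 with 100 kb and 115 with 25 kb windows, 145 at 1.5-fold, 6 with each side fitted on its own and 21 per target fragment, a choice made after seeing the data. Trans windows called numbered 511, 213 with 5 Mb windows and 207 by DESeq2. They were 179 without 2q35, 281 without 8q24.21, 772 without 9q31.2 and 193 without the chromosome 18 region. Chromosomes with ranges apart numbered 1, and 2 to 3 with 1 replicate left out. With the replicate number as a block, 435 mirrored bins and 538 trans windows were called, the latter including all 511. Of the recomputed values of single regions, bins and windows, 356 kept direction and call, 45 moved by more than the replicate spread and 34 lost their call. With 1 replicate left out, 149 were kept and 5 moved. Leaving out thinly captured fragments was not run, and tests with 1 replicate have no residual degrees of freedom. Depth limits the chromosome 3 region most.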

Other observations

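Across 1975 trans windows of 1 Mb, the profiles of 2q35 and 8q24.21 in different replicates were nearly as alike as the replicates of each. Their correlation was 0.91 in both crossings, against 0.93 for 2q35 and 0.92 for 8q24.21 with themselves. 9q31.2 was closer to the chromosome 18 region (0.88 and 0.85) and the chromosome 16 region (0.87 in both) than to 2q35 (0.81 and 0.83). It correlated with itself at 0.88. 2q35 and the chromosome 18 region had 0.72 and 0.71. These values describe windows that share mappability and base composition, and the replicates of the chromosome 3 region, the most thinly captured, had 0.77; the part of depth was not tested.

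Far cis contacts peaked at single 1 Mb stretches. Over the median of the same arm, 2q35 had 5.50 and 3.93 times at chr2:224000001-225000000 and 4.89 and 4.09 times at chr2:208000001-209000000. 8q24.21 had 4.42 and 3.77 times at chr8:134000001-135000000. 9q31.2 had 2.85 and 2.29 times at chr9:119000001-120000000, and the chromosome 3 region 3.25 and 2.75 times at chr3:76000001-77000000. The strongest same-arm stretches of the chromosome 16 and chromosome 18 regions stood at 2.08 and 1.84 times (chr16:65000001-66000000) and 1.82 and 1.77 times (chr18:50000001-51000000). On the other arm, no stretch named here exceeded 2.89 times, the value of the chromosome 3 region at chr3:94000001-95000000 in replicate 1. These stretches lie at different distances from their regions and were not corrected for distance.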
